A study of Rattus norvegicus with 10 samples.

Results

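The mRNAs of collagens, laminins and other basement membrane proteins were compared between the cerebral cortex of 5 rats given electroacupuncture (EA) and 5 control rats. The genes were taken by symbol from the table of 32623 genes, as the collagen and laminin chains with a row under their symbols. With them came the nidogens Nid1 and Nid2, agrin (Agrn), Vwa1, fibronectin (Fn1), Sparc and dystroglycan (Dag1). Of 59 such genes, 48 had 5 or more of the 10 libraries with an FPKM of 0.5 or above, and 43 of these had all 10. Lamb3 (in 5 libraries) and Col4a6 (in 6) passed narrowly, and Col26a1 (in 4) and Col28a1 (in 3) narrowly did not. Below the minimum with them were Col2a1, Col6a4, Col6a5, Col6a6, Col8a1, Col10a1, Col14a1, Col17a1 and Col22a1. FPKM is the number of sequenced fragments scaled to transcript length and library size, so that levels of different genes can be compared. Perlecan (Hspg2), Col21a1, Lama3 and Lamb4 have no row under their symbols and were not analysed here. Col1a2 and Col6a3 stand under other names, outside the 48. The 48 comprise 9 fibrillar collagen chains, 22 basement membrane genes, 14 other collagen chains, and Fn1, Sparc and Dag1 as matrix partners.

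All rats were described as adult male Sprague-Dawley animals without a disease model. In the EA rats, needles at the head point Baihui and the face point Shuigou carried 3 mA at 2/100 Hz over 40 min. The controls were restrained in like manner for 40 min. The cortex was stripped after perfusion with saline, and poly(A) RNA was sequenced. That each library comes from its own rat is assumed here from the numbered labels and is not stated outright. The p-values therefore measure the spread between these libraries. The design asks whether EA, which the study uses to open the blood-brain barrier, alters gene expression in the cortex.

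Deposited counts summed to between 47843590 and 61707722 per library, and the mean count of a member ran from 126.5 for Lamb3 to 39440 for Sparc. EA 2 and EA 5 stood apart in the small structural RNA Rn7sl1, at 188 and 298 FPKM, where the other 8 libraries ranged from 4.702 to 11.98. By the median correlation with their own group over all genes tested they stood at 0.967 and 0.969, and the others at 0.968 to 0.972. EA 3 had the lowest total count and the lowest scaling factor (0.957). Counts and medians of the fibrillar, basement membrane, other collagen and further matrix lists are given with and without EA 2 and EA 5. The marker lists are given for all 10 libraries only, and the matrix partners gene by gene. The label of cortex was checked with marker lists. Neuron markers summed to an FPKM of 1555 to 2146, whereas the choroid plexus list summed to 2.48 to 4.88 with Otx2 at 0 in all 10. Markers of meningeal fibroblasts, the collagen-making cells of the brain's coverings, summed to 88.1 to 143 in control and 67.5 to 141 in EA. In a bulk sample, fewer cells of a type and less RNA per cell cannot be told apart.

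Collagens are proteins of long helices with a glycine at regular steps. Fibrillar chains assemble into the banded cables that give meninges and large vessels their strength. In a basement membrane, type IV collagen and laminin each form a sheet, and nidogens, perlecan and agrin tie the sheets to each other and to cells. In the brain such a membrane surrounds every vessel between the endothelium, the pericytes and the end feet of astrocytes, and it is part of the blood-brain barrier.

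Promoter sequence is shown for 5 members or pairs, as a description only. Col4a1 and Col4a2 encode the main type IV collagen chains and are read in opposite directions from start sites 76 bases apart on GRCr8, so the whole interval is printed. In the deposited annotation (Rnor_6.0), on which their levels rest, the gene models lie 83.6 kb apart. For Vwa1, Agrn, Col5a3 and Col6a1, the members with the lowest p values, the 100 bases before the start site are printed. The sequences are from RefSeq on build GRCr8, 5′ to 3′ on the gene's own strand (for the shared interval, on the strand of Col4a1). Capitals mark a GC box, searched as GGGCGG or its complement CCGCCC.
Col4a1-Col4a2, chr16:84885521-84885596 (+): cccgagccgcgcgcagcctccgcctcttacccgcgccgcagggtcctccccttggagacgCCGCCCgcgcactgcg
Vwa1, chr5:171664881-171664980 (-): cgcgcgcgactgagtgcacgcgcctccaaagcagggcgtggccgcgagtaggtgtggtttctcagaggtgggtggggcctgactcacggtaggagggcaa
Agrn, chr5:172052826-172052925 (-): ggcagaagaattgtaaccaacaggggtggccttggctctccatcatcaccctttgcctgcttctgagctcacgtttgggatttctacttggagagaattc
Col5a3, chr8:27625949-27626048 (-): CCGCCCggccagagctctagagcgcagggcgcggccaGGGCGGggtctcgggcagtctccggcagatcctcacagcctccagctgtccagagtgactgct
Col6a1, chr20:11905590-11905689 (+): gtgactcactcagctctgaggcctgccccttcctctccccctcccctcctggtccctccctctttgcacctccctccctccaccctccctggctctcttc
Col5a3 has 2 GC boxes in its 100 bases and the shared type IV interval has 1, while Vwa1, Agrn and Col6a1 have 0. The shared interval is 78.9% G and C, and the Agrn window is 50%. Promoters were found for 37 of the 48 members. Over the 250 bases before the start, a GC box occurred in 23 of these 37 (62.2%), against 32.4% of all 27457 promoters. A CCAAT box (CCAAT or ATTGG) occurred in 9 (24.3%, against 34.3%) and a TATA box (TATAAA or TTTATA) in 2 (5.41%, against 13.1%). Among the fibrillar chains 6 of 7 held a GC box, and among the basement membrane genes 12 of 19. Across the 37 members, the G and C content of the promoter had a rank correlation of -0.048 with the log2 fold change between EA and control.

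Most matrix genes had a lower level in EA than in control by a small amount, and edgeR, adjusted over all genes, called none of them. Log2 fold changes were below 0 for 39 of the 48 members, against 50.5% of all 15169 genes tested. The median was -0.17 over the members and -0.0020 over all genes. edgeR's quasi-likelihood test, with Benjamini-Hochberg adjustment over all genes and a fold above 1.2, called 0 of the 48 members, where it called 0.0198% of all genes. At an unadjusted p under 0.05 lay 13 members lower in EA (27.1%, against 7.4% of all genes) and 1 higher (2.08%, against 6.81%). DESeq2, the tool of the study, called 2 of the 48 as lower (4.17%, against 0.639% of all genes), Vwa1 and Col6a1, and 0 as higher, where it called 1.09% of all genes in either direction. In 6 members every EA library had a lower FPKM than every control library (12.5%, against 2.25% of all genes), and in 0 every EA library had a higher one (against 0.85%).

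The differences of the matrix genes were smaller without EA 2 and EA 5, and the part of their Rn7sl1 level in this was not tested. Of the 48 members, EA 2 gave the lowest FPKM in 15 and EA 5 in 14, while each other library did so in 0 to 5. Without these 2 libraries the count at an unadjusted p under 0.05 was 4 lower and 0 higher (8.33% lower, against 4.36% of all genes), and the median over the members was -0.064. The 4 were Vwa1, Col5a3, Col11a2 and Col16a1. Of the 48, 30 then lay below 0 (62.5%, against 49.5% of all genes). A fit with fewer libraries also has less power, and the share of all genes lower at that p fell from 7.4% to 4.36%. Leaving out 1 library gave a count of 9 without EA 5, 10 without EA 2, control 2 or control 5, and 11 without control 4. It was 13 to 18 without 1 of the others. No other pair of libraries was left out, so the part of the smaller sample was not tested.

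Most markers of vessel cells lay lower in EA, and so did those of several other cell types. All 10 endothelial markers tested lay below 0 (median -0.14), and their summed FPKM was 225 to 236 in control and 180 to 218 in EA, without overlap. For pericytes and smooth muscle 7 of 8 lay below 0 (median -0.092), with sums of 141 to 165 in control and 138 to 158 in EA. For meningeal fibroblasts 9 of 11 lay below 0 (median -0.11). All 7 oligodendrocyte markers lay below 0 (median -0.13, sums of 1004 to 1448 and 889 to 1148). Sums for astrocytes were 1335 to 1558 in control and 1157 to 1655 in EA (4 of 8 below 0), for microglia 157 to 177 and 138 to 176 (5 of 7), for neurons 1785 to 1934 and 1555 to 2146 (1 of 8), and for blood 7.68 to 43.0 and 6.29 to 15.9 (3 of 3, median -1.05). At an unadjusted p under 0.05 by edgeR, 2 of 10 endothelial, 1 of 8 pericyte and smooth muscle and 3 of 7 oligodendrocyte markers lay lower. For meningeal fibroblasts it was 1 of 11, for astrocytes 1 of 8, for microglia 0 of 7 and for blood 3 of 3. Higher at that p were 2 of 8 neuron markers and 0 in these other lists. Over all genes, 7.4% lay lower and 6.81% higher. The part of these cells in the values of the matrix genes was not tested.

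**Figure D1:**
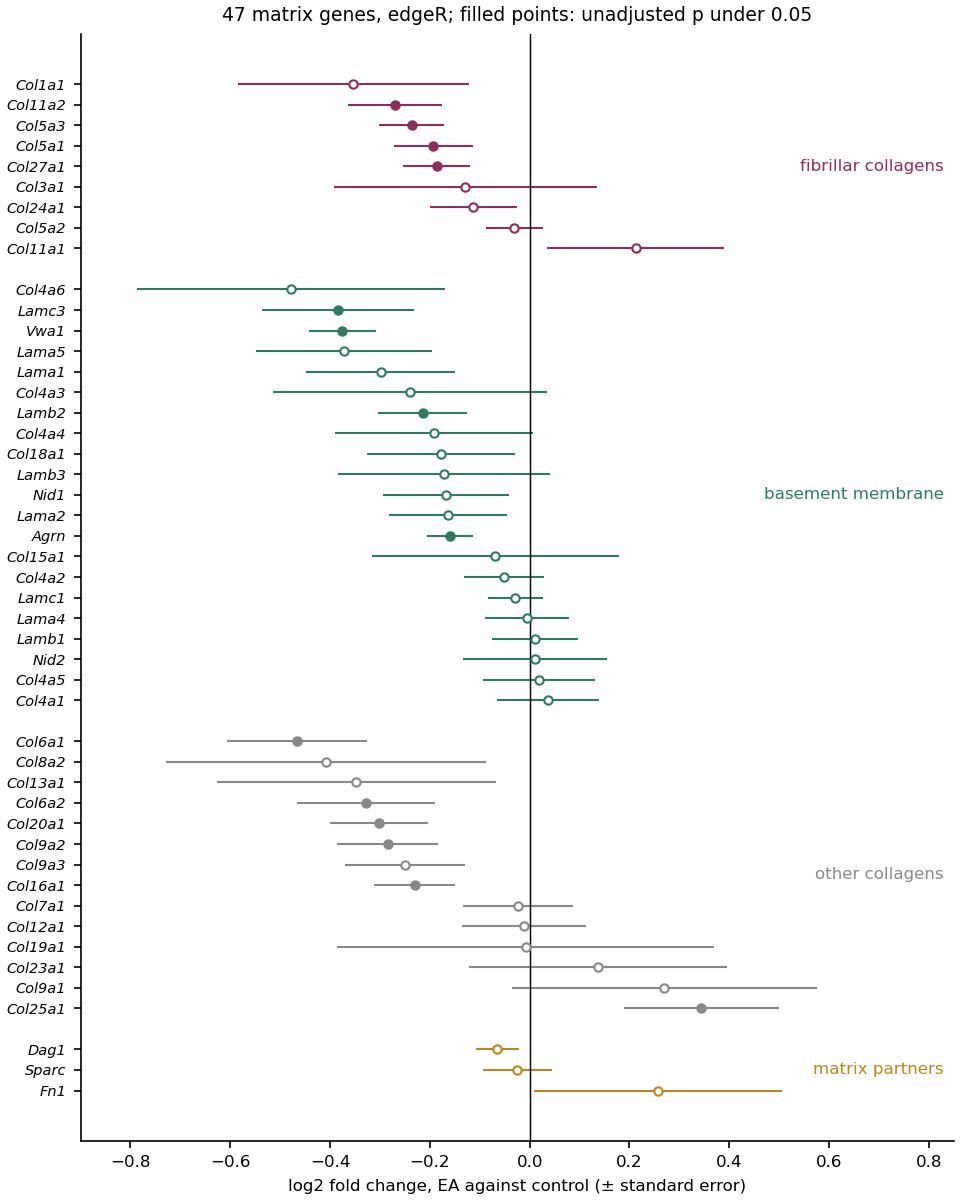
Log2 fold change of 47 of the 48 matrix genes between EA and control, by list, with standard errors as bars and filled points at an unadjusted p under 0.05. Of the points, 38 lie below 0, and the filled ones below 0 are 4 fibrillar chains, 4 basement membrane genes and 5 other collagens, with Col25a1 as the 1 above 0.

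Fibrillar chains were set against basement membrane genes, and the medians of the lists differed little. Of 9 fibrillar chains 8 lay below 0, and their median was -0.19 on the log2 scale. Of 22 basement membrane genes 18 lay below 0, and their median was -0.17. The fibrillar median minus the basement membrane median was -0.021. On the log2(FPKM + 0.1) scale, the mean level of the fibrillar list minus that of the basement membrane list was 1.42, 1.40, 1.34, 1.34 and 1.32 in controls 1 to 5. In EA 1 to EA 5 it was 1.27, 1.43, 1.36, 1.45 and 1.38. The groups overlapped, with a mean of 1.36 (SD 0.043, n = 5) in control and 1.38 (SD 0.069, n = 5) in EA, so the balance between the lists moved by less than the spread between libraries. Each list by itself had a lower mean in EA. The fibrillar level was 3.08 (SD 0.097) in control and 2.91 (SD 0.11) in EA, and the basement membrane level 1.71 (SD 0.094) and 1.53 (SD 0.12), with overlap between the groups in both, while all genes tested stood at 2.918 (SD 0.022) and 2.897 (SD 0.031). Control 3 had a fibrillar level of 2.91, inside the EA range of 2.76 to 3.06. Without EA 2 and EA 5 the median of the fibrillar list was -0.11 with 6 of 9 below 0, and that of the basement membrane list -0.046 with 15 of 22 below 0. At an unadjusted p under 0.05, 4 of 9 fibrillar chains (44.4%) and 4 of 22 basement membrane genes (18.2%) lay lower in EA. The share over all genes was 7.4%. Without EA 2 and EA 5, 2 of 9 fibrillar chains (22.2%) and 1 of 22 basement membrane genes (4.55%) did so, against 4.36% of all genes.

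**Figure D2:**
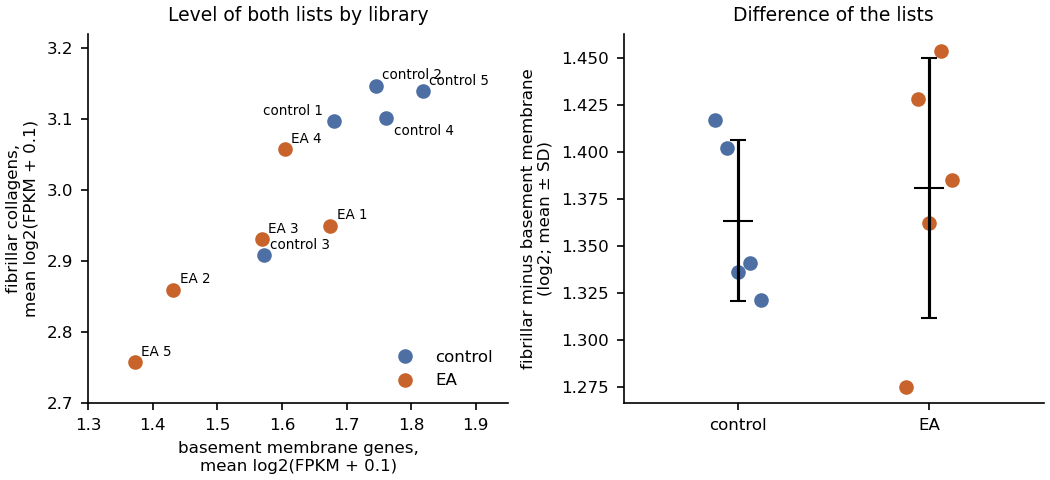
Left, mean log2(FPKM + 0.1) of the 9 fibrillar chains against that of the 22 basement membrane genes in each library. Right, the difference of the lists by library with mean ± SD for each group: EA 2 and EA 5 are lowest on both axes at left, and the groups overlap at right.

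Some fibrillar chains varied little between libraries and others widely. Col5a3, a minor chain of type V collagen, which sets fibril width, had an FPKM of 8.57, 8.58, 9.24, 7.90 and 7.82 in controls 1 to 5 and 6.30, 7.31, 7.19, 7.39 and 6.98 in EA 1 to EA 5. All EA values lay below all control values, with a log2 fold change of -0.24 (SE 0.066, adjusted p = 0.189), where SE is the standard error. The gene lies at chr8:21786324-21831668 on Rnor_6.0, the build of the table. Col11a2, a chain of the minor fibrillar type XI, was the most abundant fibrillar chain, with 40.9, 45.7, 46.8, 39.3 and 39.7 in controls 1 to 5 and 36.9, 38.0, 38.7, 29.1 and 30.4 in EA 1 to EA 5. Its groups did not overlap either, with a log2 fold change of -0.27 (SE 0.094, adjusted p = 0.244). Col11a2 starts 1.02 kb after the end of Rxrb on the same strand. Col27a1 had means of 12.7 (SD 0.96) in control and 10.95 (SD 0.74) in EA, with a log2 fold change of -0.19 (SE 0.067, adjusted p = 0.252). Col5a1, the main type V chain, had means of 9.92 (SD 1.00) in control and 8.54 (SD 0.69) in EA, with a log2 fold change of -0.19 (SE 0.079, adjusted p = 0.302). Col24a1 had 3.57 (SD 0.27) in control and 3.25 (SD 0.22) in EA, with a log2 fold change of -0.11 (SE 0.087, adjusted p = 0.596). Col5a2 had 11.7 (SD 0.83) in control and 11.3 (SD 0.51) in EA, with a log2 fold change of -0.030 (SE 0.058, adjusted p = 0.857). Col11a1 alone among the 9 chains had a value above 0, with 2.36 (SD 0.52) in control and 2.695 (SD 0.67) in EA and a log2 fold change of 0.21 (SE 0.18, adjusted p = 0.629), where control 1 at 3.25 lay above 4 of the 5 EA libraries.

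The chains of the large fibrils differed more between libraries of a group than between groups. Col1a1 (chr10:82745801-82762789), a chain of type I collagen, the main collagen of connective tissue, had an FPKM of 4.91, 6.02, 3.53, 7.07 and 8.09 in controls 1 to 5 and 5.32, 2.71, 4.33, 6.42 and 4.07 in EA 1 to EA 5. Col3a1 (chr9:52023295-52059217), the type III chain of pliable tissue and vessel walls, had 7.07, 7.77, 4.46, 9.85 and 11.5 in controls 1 to 5 and 9.04, 4.92, 6.34, 11.3 and 5.07 in EA 1 to EA 5. Both were highest in control 5 and low in control 3, EA 2 and EA 5, and their groups overlapped. A miRNA entry, AABR07067556, overlaps Col3a1 on the same strand with a mean of 5.98 FPKM. How reads were shared between this entry and Col3a1 is not stated. The log2 fold change was -0.35 (SE 0.23, adjusted p = 0.528) for Col1a1 and -0.13 (SE 0.26, adjusted p = 0.866) for Col3a1. For Col1a1 it was -0.21 without control 5 or without EA 2 and -0.11 without both EA 2 and EA 5, and for Col3a1 it was 0.033 without control 5, -0.014 without EA 2 and 0.16 without both EA libraries. The Col1a2 chain stands in the table under the symbol NEWGENE_621351 with a description as type I collagen, outside the 48 members, and had 7.27 (SD 2.74) in control and 5.81 (SD 2.07) in EA, with a log2 fold change of -0.30 (SE 0.28, adjusted p = 0.664). The standard deviation within groups, on the log2(FPKM + 0.1) scale, was 0.46 for Col1a1 and 0.52 for Col3a1, against 0.086 for Col5a2 and 0.095 for Col5a3. Col5a2 lies 33.3 kb from Col3a1 on chromosome 9, on the other strand.

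**Figure D3:**
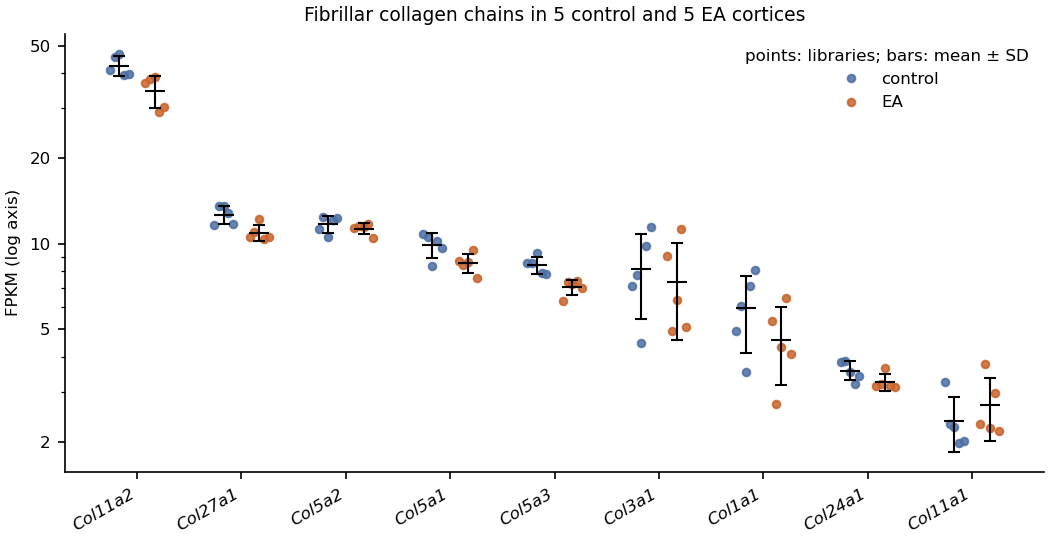
FPKM of the 9 fibrillar collagen chains on a log axis, with 1 point per library and bars for the mean ± SD of 5 libraries. Col11a2 and Col5a3 show no overlap between control and EA, and Col1a1 and Col3a1 show the widest spread within a group.

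Levels of the type I and III chains, and of Col4a1 and Col4a2, went together across the 10 libraries. Of 6 pairs, tested by permutation with 100000 resamples (two-sided) on log2(FPKM + 0.1), Col1a1 and the Col1a2 chain NEWGENE_621351 had Pearson's r of 0.97 (p = 2e-05, adjusted p = 0.00012) and Spearman's rho of 0.95 (p = 0.00012, adjusted p = 0.00036). Col1a1 and Col3a1 had r of 0.92 (permutation p = 0.00014, adjusted p = 0.00042) and rho of 0.96 (p = 3e-05, adjusted p = 0.00018). For Col4a1 and Col4a2, r was 0.81 (permutation p = 0.00288, adjusted p = 0.00576) and rho 0.81 (p = 0.00708, adjusted p = 0.0142). Between the fibrillar Col1a1 and the basement membrane chain Col4a1, r was 0.15 (permutation p = 0.673, adjusted p = 0.673) and rho 0.22 (p = 0.537, adjusted p = 0.537). Lama2 with Lamc1 had r of 0.64 (permutation p = 0.0474, adjusted p = 0.0569) and rho of 0.70 (p = 0.0316, adjusted p = 0.0379). Col1a1 with the meningeal fibroblast marker Dcn, a small proteoglycan that coats collagen fibrils, had r of 0.66 (permutation p = 0.039, adjusted p = 0.0569) and rho of 0.70 (p = 0.0307, adjusted p = 0.0379). Without the 2 libraries farthest from the median of the first gene (control 5 and EA 2, and for Col4a1 EA 2 and EA 3), r was 0.96, 0.93, 0.78, -0.21, 0.72 and 0.70 in the order given. Taken as deviations from the group means, r was 0.98, 0.95, 0.86, 0.17, 0.57 and 0.75 in the same order. There the permutation test gave an adjusted p of 0.0971 for Lama2 with Lamc1 and 0.0215 for Col1a1 with Dcn. Correlations within 1 group of 5 libraries were not computed.

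**Figure D4:**
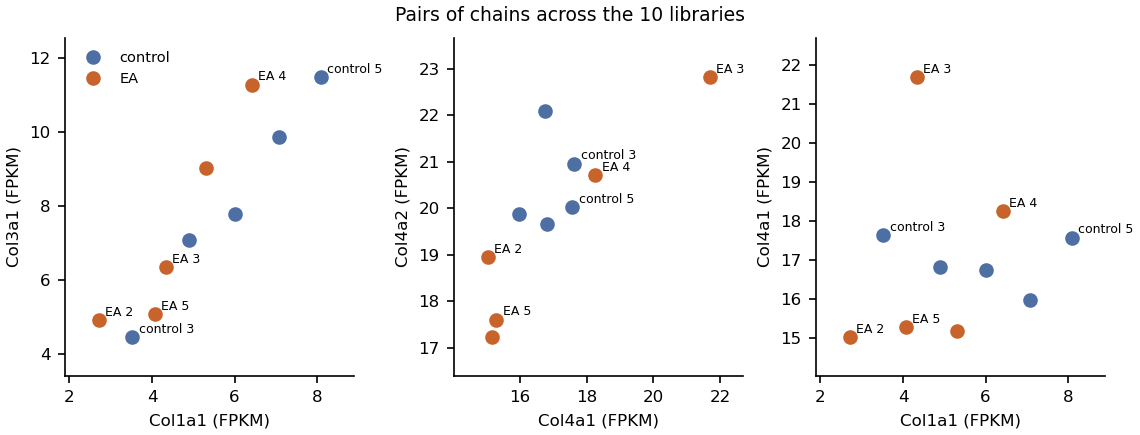
FPKM of Col3a1 against Col1a1, Col4a2 against Col4a1, and Col4a1 against Col1a1, with 1 point per library. The type I and III chains go together (r of 0.92) and so do the type IV chains (r of 0.81), and in the panel of Col1a1 and Col4a1 (r of 0.15) EA 3 stands highest in Col4a1 at a Col1a1 level of 4.33.

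The network chains of the basement membrane showed small differences. Col4a1 (chr16:83522162-83632153) had an FPKM of 16.8, 16.8, 17.6, 16.0 and 17.6 in controls 1 to 5 and 15.2, 15.03, 21.7, 18.3 and 15.3 in EA 1 to EA 5. Col4a2 (chr16:83387364-83438561) had 19.7, 22.1, 21.0, 19.9 and 20.0 in controls 1 to 5 and 17.2, 19.0, 22.8, 20.7 and 17.6 in EA 1 to EA 5. EA 3 was highest and EA 1, EA 2 and EA 5 were low in both genes, on either side of the narrow control range. The log2 fold change was 0.037 (SE 0.10, adjusted p = 0.910) for Col4a1 and -0.052 (SE 0.080, adjusted p = 0.820) for Col4a2. The other type IV chains, which form the networks of kidney, ear and muscle, were scarce: Col4a5 had 2.89 (SD 0.37) in control and 2.89 (SD 0.36) in EA, Col4a4 2.11 (SD 0.22) in control and 1.82 (SD 0.54) in EA, Col4a3 1.10 (SD 0.40) in control and 0.925 (SD 0.25) in EA and Col4a6 0.588 (SD 0.095) in control and 0.417 (SD 0.23) in EA. Their log2 fold changes ran from -0.48 to 0.018, with adjusted p of 0.519 to 0.965 by edgeR, and the lowest, of Col4a6, was -0.11 without EA 2 and EA 5. The median of the 6 type IV chains was -0.12 with these libraries and 0.027 without them. Col15a1 and Col18a1, whose proteins link basement membranes to the tissue beneath and carry the fragment endostatin in the case of Col18a1, had log2 fold changes of -0.069 (SE 0.25, adjusted p = 0.933) and -0.18 (SE 0.15, adjusted p = 0.631).

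Laminins are cross-shaped molecules of an alpha, a beta and a gamma chain. Among alpha chains, Lama4 of endothelial laminin had 4.89, 4.83, 4.90, 4.18 and 4.70 in controls 1 to 5 and 5.11, 4.45, 4.30, 3.99 and 5.23 in EA 1 to EA 5. Lama5, the other endothelial alpha chain, had 1.38, 1.85, 2.38, 2.02 and 2.11 in controls 1 to 5 and 1.10, 1.39, 2.00, 1.72 and 1.19 in EA 1 to EA 5, and Lama2, the alpha chain of the astrocyte side and of muscle, 1.14, 1.07, 0.960, 1.25 and 1.31 in controls 1 to 5 and 1.03, 0.807, 1.13, 0.961 and 1.12 in EA 1 to EA 5. Lama4 did not separate the groups, with a log2 fold change of -0.0053 (SE 0.083, adjusted p = 0.988). Fam229b overlaps Lama4 on the other strand. The libraries were made with dUTP in the second DNA strand, which keeps the strand of the RNA. Whether the counting used the strand is not stated, so it is not known whether reads of Fam229b enter the value of Lama4. The log2 fold change was -0.37 (SE 0.18, adjusted p = 0.365) for Lama5, where EA 1 and EA 5 lay below control 1, the lowest control, and -0.16 (SE 0.12, adjusted p = 0.571) for Lama2. The beta chain Lamb2, found in mature vessels and at synapses, had 11.3, 14.7, 13.9, 15.4 and 16.4 in controls 1 to 5 and 11.9, 11.7, 13.4, 12.7 and 11.2 in EA 1 to EA 5. The other common beta chain, Lamb1, had 4.89, 5.41, 5.48, 6.45 and 6.36 in controls 1 to 5 and 6.35, 5.998, 4.74, 5.56 and 5.68 in EA 1 to EA 5, and the gamma chain Lamc1, shared by most laminins, 8.05, 7.74, 7.91, 8.84 and 8.22 in controls 1 to 5 and 8.02, 7.65, 7.71, 7.31 and 8.62 in EA 1 to EA 5. The log2 fold change was -0.21 (SE 0.089, adjusted p = 0.306) for Lamb2, with control 1 inside the EA range, 0.010 (SE 0.086, adjusted p = 0.977) for Lamb1 and -0.029 (SE 0.055, adjusted p = 0.856) for Lamc1. Of the 10 laminin chains tested 9 lay below 0 (90%, against 50.5% of all genes, median -0.17). At an unadjusted p under 0.05, 2 lay lower (20%, against 7.4% of all genes), Lamb2 and Lamc3. Lamc3, a gamma chain, had 1.65 (SD 0.21) in control and 1.24 (SD 0.28) in EA and a log2 fold change of -0.38 (SE 0.15, adjusted p = 0.289). Without EA 2 and EA 5, 9 of 10 lay below 0 (median -0.11) and 0 reached that p, where 4.36% of all genes lay lower. Of the scarce chains, Lama1 had -0.30 (SE 0.15, adjusted p = 0.391) and Lamb3 -0.17 (SE 0.21, adjusted p = 0.763) on the same scale, and each had a mean of 0.481 to 1.02 FPKM in both groups.

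Proteins that join the sheets were led by Vwa1, the gene with the lowest p of all 48. Vwa1 (chr5:173216741-173222440) encodes a small protein with a von Willebrand domain that binds perlecan in basement membranes. It had 9.59, 10.4, 11.3, 11.1 and 11.5 in controls 1 to 5 and 8.34, 7.29, 8.41, 8.58 and 8.21 in EA 1 to EA 5. All EA values lay below all control values, with means of 10.8 (SD 0.78) in control and 8.17 (SD 0.51) in EA and a log2 fold change of -0.38 (SE 0.067, adjusted p = 0.0971). DESeq2 gave an adjusted p of 6.73e-04. Without EA 2 and EA 5 the edgeR value was -0.32 (SE of 0.073, adjusted p = 0.384). Agrn (chr5:173589819-173622645), whose product clusters receptors at the nerve-muscle junction and coats brain vessels, lies 367 kb from Vwa1 and had 32.9, 38.3, 37.1, 37.1 and 33.3 in controls 1 to 5 and 31.8, 30.2, 32.0, 32.3 and 30.8 in EA 1 to EA 5. Its groups did not overlap, with a log2 fold change of -0.16 (SE 0.047, adjusted p = 0.205), which is under the fold of 1.2 used for calls. The nidogens bridge laminin and type IV collagen. Nid1 had 4.37, 4.93, 3.62, 4.49 and 5.33 in controls 1 to 5 and 4.36, 3.13, 3.55, 5.05 and 3.87 in EA 1 to EA 5, and Nid2 had 1.74, 1.93, 1.89, 2.34 and 2.33 in controls 1 to 5 and 2.13, 1.49, 2.24, 2.52 and 1.78 in EA 1 to EA 5. Both were lowest in EA 2, and their groups overlapped, with log2 fold changes of -0.17 (SE 0.13, adjusted p = 0.589) and 0.010 (SE 0.14, adjusted p = 0.987). The values of Lamb1 and Nid2 turned to -0.011 with total counts in place of TMM scaling.

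**Figure D5:**
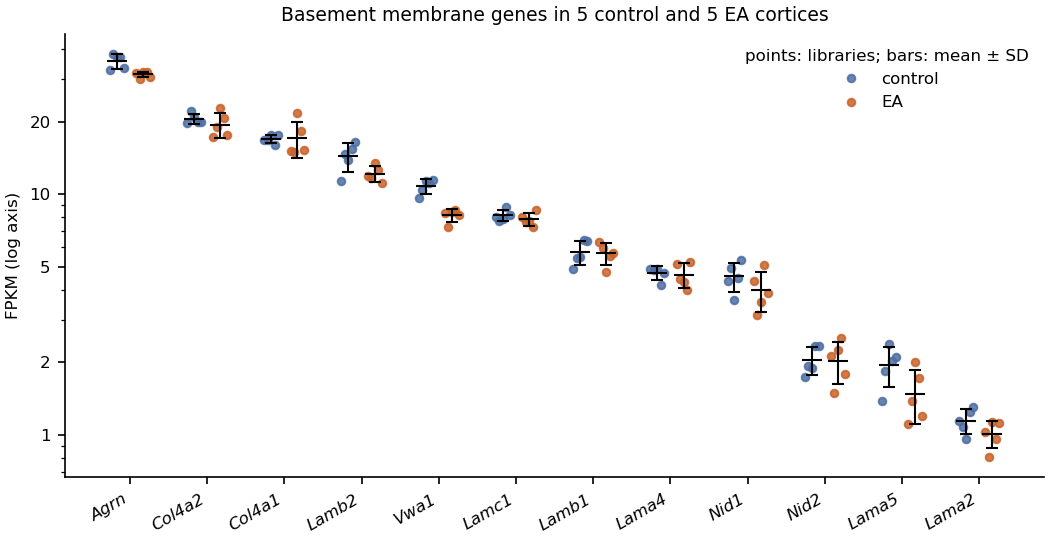
FPKM of 12 basement membrane genes on a log axis, with 1 point per library and bars for the mean ± SD of 5 libraries. Vwa1 and Agrn show no overlap between control and EA, and Col4a1 and Col4a2 spread more widely in EA than in control.

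The matrix partners did not separate the groups. Sparc, a secreted protein that binds collagen and is made by astrocytes and vessels, was the most abundant member, with 320, 303, 338, 350 and 338 in controls 1 to 5 and 295, 289, 348, 354 and 308 in EA 1 to EA 5 and a log2 fold change of -0.024 (SE 0.069, adjusted p = 0.912). Dag1, the receptor that anchors astrocyte end feet to laminin and agrin, had 32.1, 32.7, 31.0, 31.7 and 31.9 in controls 1 to 5 and 28.9, 29.2, 31.2, 31.5 and 29.3 in EA 1 to EA 5, with EA 1, EA 2 and EA 5 below every control and a log2 fold change of -0.065 (SE 0.043, adjusted p = 0.536). Fn1, which forms fibres between cells and is also a plasma protein, had 29.6, 17.8, 22.9, 17.1 and 25.0 in controls 1 to 5 and 23.7, 16.3, 45.3, 24.4 and 22.2 in EA 1 to EA 5. EA 3 alone lay above all controls, and the log2 fold change of 0.26 (SE 0.25, adjusted p = 0.686) was -0.044 without EA 3.

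Among the other collagens 11 of 14 lay below 0 (78.6%, against 50.5% of all genes), with a median of -0.24. At an unadjusted p under 0.05 by edgeR, 5 lay lower (35.7%, against 7.4% of all genes) and 1 higher (7.14%, against 6.81%). When EA 2 and EA 5 were left out, 8 of 14 lay below 0 (57.1%, against 49.5%), with a median of -0.16. At that p, 1 then lay lower (7.14%, against 4.36%) and 0 higher. Col6a1 (chr20:12658065-12675561), a chain of the beaded filaments around vessels and cells, had 15.3, 15.7, 9.91, 12.5 and 12.9 in controls 1 to 5 and 12.3, 8, 9.37, 9.56 and 8.09 in EA 1 to EA 5. Its partner Col6a2, 97.9 kb away, had 8.43, 12.2, 8.91, 11.6 and 12.2 in controls 1 to 5 and 10.4, 6.31, 8.07, 9.47 and 7.57 in EA 1 to EA 5. In Col6a1 4 of 5 EA libraries lay below every control, and control 3 was the lowest control. The log2 fold change was -0.47 (SE 0.14, adjusted p = 0.212) for Col6a1, which DESeq2 called with an adjusted p of 0.0324, and -0.33 (SE 0.14, adjusted p = 0.312) for Col6a2. Without EA 2 and EA 5, Col6a1 had -0.32 (SE of 0.15). The Col6a3 chain, listed as AABR07068316 and outside the 48, had 0.866 (SD 0.30) in control and 0.732 (SD 0.22) in EA.

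The collagens that decorate fibrils or span membranes lay on both sides of 0. Col20a1, a fibril-associated chain, had 1.84, 1.92, 2.00, 1.91 and 1.64 in controls 1 to 5 and 1.53, 1.53, 1.57, 1.48 and 1.32 in EA 1 to EA 5. Col16a1, a fibril-associated chain that also lies beside basement membranes, had 11.3, 12.1, 10.2, 9.52 and 9.67 in controls 1 to 5 and 8.98, 9.49, 9.31, 8.41 and 8.06 in EA 1 to EA 5. In both genes all EA values lay below all control values, with log2 fold changes of -0.30 (SE 0.098, adjusted p = 0.223) and -0.23 (SE 0.081, adjusted p = 0.248). Col9a2 and Col9a3, chains of a cartilage collagen, had log2 fold changes of -0.28 (SE 0.10, adjusted p = 0.252) and -0.25 (SE 0.12, adjusted p = 0.371), and their partner Col9a1 of 0.27 (SE 0.30, adjusted p = 0.739). Col25a1, a neuronal membrane collagen found in amyloid plaques, was the only member at an unadjusted p under 0.05 with a higher level in EA, with 3.42, 3.66, 3.31, 2.79 and 3.33 in controls 1 to 5 and 4.93, 3.47, 3.81, 3.10 and 5.33 in EA 1 to EA 5 and a log2 fold change of 0.34 (SE 0.16, adjusted p = 0.345). EA 1, EA 3 and EA 5 lay above every control, and EA 2 and EA 4 lay inside the control range. The remaining chains Col7a1, Col8a2, Col12a1, Col13a1, Col19a1 and Col23a1 had log2 fold changes of -0.41 to 0.14 with adjusted p of 0.607 to 0.996 by edgeR.

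Genes that make, bind or cut the matrix were described from 3 further lists. Of 25 collagen maturation genes tested 16 lay below 0 (64%, against 50.5% of all genes, median -0.054), with 3 lower (12%, against 7.4%) and 1 higher (4%, against 6.81%) at an unadjusted p under 0.05. With EA 2 and EA 5 left out, 13 lay below 0 (52%, against 49.5% of all genes, median -0.021), with 0 lower (against 4.36%) and 1 higher (against 690 of all 15169 genes). The 1 higher was P4ha1, the prolyl hydroxylase subunit that stabilises the collagen helix, with 26.2, 24.7, 25.9, 26.6 and 25.4 in controls 1 to 5 and 30.2, 27.2, 30.9, 32.7 and 34.3 in EA 1 to EA 5 and a log2 fold change of 0.29 (SE 0.059, adjusted p = 0.146). Every EA value lay above every control value, as in 1 of the 25 genes (against 0.85% of all genes). DESeq2 called P4ha1 (adjusted p = 0.0036), 1 of the 25 as higher, against 69 of all 15169 genes. P3h4, which takes part in lysine modification of collagen, had 4.21 (SD 1.04) in control and 3.03 (SD 0.53) in EA, with a log2 fold change of -0.45 (SE 0.18, adjusted p = 0.289). Bmp1, which trims fibrillar procollagen, had a log2 fold change of -0.14 (SE 0.055, adjusted p = 0.285) and the glycosyltransferase Colgalt2 -0.23 (SE 0.10, adjusted p = 0.333).

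Of 19 receptors tested 11 lay below 0 (57.9%, against 50.5% of all genes, median -0.056), with 2 lower (10.5%, against 7.4%) and 0 higher at an unadjusted p under 0.05. Without EA 2 and EA 5 the median turned to 0.068, with 6 below 0 (31.6%, against 49.5%). At that p, 2 lay lower (10.5%, against 4.36%), Bcam and Itga7. Bcam, a receptor for laminin alpha 5 on vessels, had 10.5, 11.8, 12.8, 13.0 and 10.8 in controls 1 to 5 and 9.48, 9.30, 9.76, 9.42 and 8.97 in EA 1 to EA 5 and a log2 fold change of -0.30 (SE 0.069, adjusted p = 0.168), and DESeq2 called it (adjusted p = 0.0187). The laminin-binding integrin Itga7 had 5.28 (SD 0.33) in control and 4.41 (SD 0.20) in EA, with a log2 fold change of -0.23 (SE 0.063, adjusted p = 0.182). In both receptors all EA values lay below all control values, as in 2 of the 19 (10.5%, against 2.25% of all genes). DESeq2 called 1 of the 19 as lower (5.26%, against 0.639%). Dmd and Sgce, parts of the complex around dystroglycan, had log2 fold changes of 0.15 (SE 0.073, adjusted p = 0.373) and 0.12 (SE 0.061, adjusted p = 0.391). Of 21 turnover genes tested 12 lay below 0 (57.1%, against 50.5% of all genes, median -0.0041), with 2 lower and 2 higher (9.52% each, against 7.4% and 6.81%). Without EA 2 and EA 5 the median turned to 0.036, with 9 below 0 (42.9%, against 49.5%). Again 2 lay lower (9.52%, against 4.36%) and 2 higher (against 690 of all 15169 genes). Reck, a membrane inhibitor of matrix proteases, had a log2 fold change of -0.26 (SE 0.078, adjusted p = 0.212) and the membrane protease Mmp15 -0.21 (SE 0.074, adjusted p = 0.248). The plasminogen activator Plat had a log2 fold change of 0.30 (SE 0.13, adjusted p = 0.315).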

How the data were processed

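Poly(A) RNA from the cortex of 5 control and 5 EA rats was sequenced. By the study's methods, adaptors were removed by the authors (Cutadapt 1.9), alignment used HISAT2 2.0.4 and assembly StringTie 1.3.4d, and the authors merged the assemblies with gffcompare 0.9.8 and deposited FPKM values computed with StringTie and ballgown. The submitters' processing notes name HISAT2 2.0, StringTie 1.3.0, Bowtie 0.12.2 and the build Rnor_6.0. The deposited table also holds estimated counts as whole numbers, and how these were drawn is not given in the sources used here. Groups came from the sample labels.

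The 15169 genes whose FPKM was 0.5 or above in 5 or more libraries were fitted with edgeR 4.0.16 (quasi-likelihood, TMM, R 4.3.3), with Benjamini-Hochberg adjustment over all of them. Calls needed an adjusted p under 0.05 and a fold above 1.2. DESeq2 1.42.0 and limma 3.58.1 on log2(FPKM + 0.1) were alternatives, and the steps were tested on simulated data. Standard errors are the log2 fold change divided by the root of F. Total counts per library were 47843590 to 61707722. The members and lists were chosen with earlier results of these data known. Named with values by library were the main type I, III and IV chains, laminins, nidogens, Agrn, Fn1, Sparc and Dag1, the 6 other members with the lowest p, called members, and up to 4 genes of each pathway list with the lowest p. Col25a1 and other members outside that rule were named after their values were seen. Whether replicate numbers pair the samples is not stated, and the main fit used no pairing. Across genes, the deviations of same-numbered libraries from their group means correlated at -0.0026 to 0.061. The promoters are from RefSeq (GRCr8), a build other than that of the table. Results of 2 genes are not reported here by name.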

Additional observations from a re-analysis of the deposited data

Results flagged for a closer look

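In groups of 5 libraries, 9 of 102 groups held a library far from the other 4 by Dixon's test, and chance flags about 1 in 20. In FPKM these were Col11a1 in control 1 (3.25, others 1.99 to 2.31), Col19a1 in control 1 (1.91, others 0.757 to 0.968), Col24a1 in EA 3 (3.64, others 3.13 to 3.21), Col4a4 in EA 5 (0.865, others 1.88 to 2.20), Col8a2 in EA 4 (1.52, others 0.543 to 0.764), Fn1 in EA 3 (45.3, others 16.3 to 24.4), Lama4 in control 4 (4.18, others 4.70 to 4.90) and Vwa1 in EA 2 (7.29, others 8.21 to 8.58). The mean log2(FPKM + 0.1) of the fibrillar chains was 2.91 in control 3 and 3.10 to 3.15 in the other controls.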

How the results depend on the processing

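The count of members called was 0 by edgeR and under every alternative run except DESeq2, which called 2. Among them the earlier form of the edgeR quasi-likelihood test, was added after seeing the data and called 0. The count lower at an unadjusted p under 0.05 (13) was 4 without EA 2 and EA 5 and 9 (without EA 5) to 18 (without EA 4) when 1 library was left out. The count higher (1) was 0 with limma at either pseudocount, with total counts and without EA 2 and EA 5, and 0 to 1 when 1 library was left out. With the replicate number as a block, 0 members were called, 13 lay lower and 1 higher at an unadjusted p under 0.05, and no call changed. The block rests on a shared number only. The fibrillar median was -0.21 to -0.14 and the basement membrane median -0.21 to -0.12 when 1 library was left out, and the latter was -0.046 without EA 2 and EA 5, -0.10 with an FPKM of at least 1 in all libraries and -0.10 with limma on log2(FPKM + 1). The difference of these medians (-0.021) was -0.081 with an FPKM of at least 1 in all libraries, -0.089 with limma on log2(FPKM + 1), -0.065 without EA 2 and EA 5, and -0.083 (without control 5) to 0.014 when 1 library was left out. As deviations from group means, the correlation of Col1a1 with Dcn was 0.75 (permutation, adjusted p = 0.0215). That of Lama2 with Lamc1 was 0.57 (permutation, adjusted p = 0.0971).

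Of 439 values of 22 named members, 34 turned sign, and 13 members turned in none of the 20 alternatives. With limma on log2(FPKM + 0.1), Col4a1 was -0.0027, Lamb1 -0.012 and Nid2 -0.020. On log2(FPKM + 1) they were -0.0020, -0.011 and -0.011. With total counts Lamb1 and Nid2 were -0.011. Without EA 2 and EA 5, Col3a1 was 0.16, Col4a2 0.017, Lamb1 -0.0091 and Sparc 0.047. Leaving out 1 library gave -0.33 to 0.033 for Col3a1, -0.075 to 0.083 for Col4a1, -0.048 to 0.047 for Lama4, -0.032 to 0.061 for Lamb1, -0.054 to 0.00088 for Lamc1, -0.074 to 0.11 for Nid2, -0.044 to 0.39 for Fn1 and -0.067 to 0.0094 for Sparc. Col4a2 (-0.052) kept its sign when 1 library was left out, from -0.12 without EA 3 to -0.0088 without EA 1 or EA 5. Without a change of sign in any alternative, Nid1 (-0.17) was -0.091 without EA 2, -0.10 without control 5, -0.26 without EA 4 and -0.042 without EA 2 and EA 5. Likewise, Lama2 (-0.16) was -0.092 without EA 2 and -0.11 without control 5 or without EA 2 and EA 5. Without both EA libraries Lama5 (-0.37) was -0.24 and Dag1 (-0.065) -0.030. The cause was not tested. Mean counts per member ran from 126.5 upwards, and the smallest difference detectable at that depth was not determined.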
